A study of Homo sapiens with 8 samples.

Results

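The BCL2 family genes described here are 10 genes that set the threshold for the mitochondrial pathway of apoptosis. They were chosen by name, with earlier results of these data known. BCL2, BCL2L1, MCL1 and BCL2L2 block the pathway, and BAX, BAK1, BCL2L11, BBC3, PMAIP1 and BID drive it. Probes were assigned to them by the RefSeq accession of each probe on the array, which gave 15 of the 42405 non-control probes and 10 of the 28850 genes tested. LNCaP cells are an androgen-sensitive line established from a lymph node metastasis of a human prostate cancer. They were transiently transfected with 30 nM of an siRNA against the transcription factor GATA2 (siGATA2) or of a scrambled siRNA (siControl). Total RNA was taken 72 h later from 4 replicates per group. Apart from the siRNA both groups received the same transfection reagent and medium, and the methods name 1 siRNA product for each group, so that an effect of the GATA2 siRNA on other transcripts and an effect through GATA2 cannot be told apart. Each of the 8 samples was hybridised to a 1-colour Agilent array, and values are log2 processed signals after quantile normalization over the 8 arrays. A log2 fold change is the mean of the arrays labelled siGATA2 minus that of the arrays labelled siControl, and a gene is said to have been called, to have risen or to have fallen where limma with Benjamini-Hochberg adjustment over all genes gave an adjusted p under 0.05.

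Proteins of the BCL2 family meet at the outer mitochondrial membrane. BAX and BAK form the pores through which cytochrome c leaves the mitochondrion, the anti-apoptotic members hold them in check, and the BH3-only proteins, such as BIM, PUMA, NOXA and BID, either activate the pore formers or bind and neutralise the anti-apoptotic members. BCL2 and MCL1 are long studied in prostate cancer for their part in survival after androgen deprivation.

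The targeted gene was measured by a probe for NM_001145661 that was well above background on all arrays. Its signal read 12.61, 12.54, 11.57 and 11.40 on the siGATA2-labelled arrays, in the order of their replicate numbers, as are all values below, and 11.74, 11.28, 11.10 and 11.29 on the siControl-labelled ones. It was not lower on the arrays labelled siGATA2 (log2 fold change 0.68, SE 0.312, adjusted p = 0.154 from limma), and every direction below rests on the labels of the arrays. With array weights GATA2 was called higher (1.1, adjusted p = 0.00194), and under E1A spike-in scaling its log2 fold change was 0.03 (adjusted p = 0.986). Across arrays, 34353 to 36968 probes were well above background in siGATA2 and 24241 to 34796 in siControl, where arrays 1 and 3 had the noisiest negative controls (SD 4.49 and 7.26 intensity units, against 1.78 to 2.4 elsewhere). All arrays lay on 1 slide, with 3 arrays labelled siGATA2 and 1 labelled siControl in a row and the reverse in the other row. All 7 prostate luminal markers were well above background on every array, as were 0 of 3 basal, 1 of 3 fibroblast (COL1A1) and 2 of 3 leukocyte markers (PTPRC and CD14). The basal markers TP63 and KRT14, the fibroblast marker DCN and the leukocyte marker CD3E were well above background on some arrays only. The basal keratin KRT5 and the fibroblast collagen COL3A1 were so on none. The summed signal of 3 leukocyte markers was 743 to 825 on the arrays labelled siGATA2 and 520 to 618 on the others, where PTPRC rose (log2 fold change 0.87) and CD3E (-0.14) and CD14 (-0.02) were not called, and that of 7 luminal markers 308000 to 471000 against 423000 to 530000; the part of these shifts in the results below was not tested. In RNA from whole cultures, fewer cells of a type and less RNA per cell cannot be told apart.

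Of the 10 genes, 5 fell (BCL2, BAX, BBC3, PMAIP1 and BID), 3 rose (MCL1, BCL2L2 and BAK1) and 2 were not called (BCL2L1 and BCL2L11). Over all genes tested 14.2% fell and 12.3% rose. These shares over all genes also cover lincRNA loci and bare accessions, as 17858 of the 28850 carry a gene symbol. The split followed the role of the gene in part. Among the 4 anti-apoptotic genes 2 rose and 1 fell, with a median log2 fold change of 0.55, and among the 6 pro-apoptotic genes 4 fell and 1 rose, with a median of -0.99, beside a median of 0.09 over all genes. BCL2 and BAK1 went against the other called genes of their role. The arrays of each group lay clear of the other group in 8 of the 10 genes, against 32.6% of all genes. For each of the 8 the exact two-sided permutation test over arrays gave p = 0.0286, the smallest it can give with 4 against 4. This value follows from the lack of overlap and is the same for any gene whose 4 arrays per group do not overlap, so it adds no support. A change of at least 2-fold was reached by 3 genes that fell (BAX, BBC3 and PMAIP1), against 7.13% of all genes, and by 1 that rose (MCL1), against 4.52%. Counted by probe, 9 of 15 fell and 3 rose, where 14.5% of all probes fell and 12.5% rose.

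**Figure D1:**
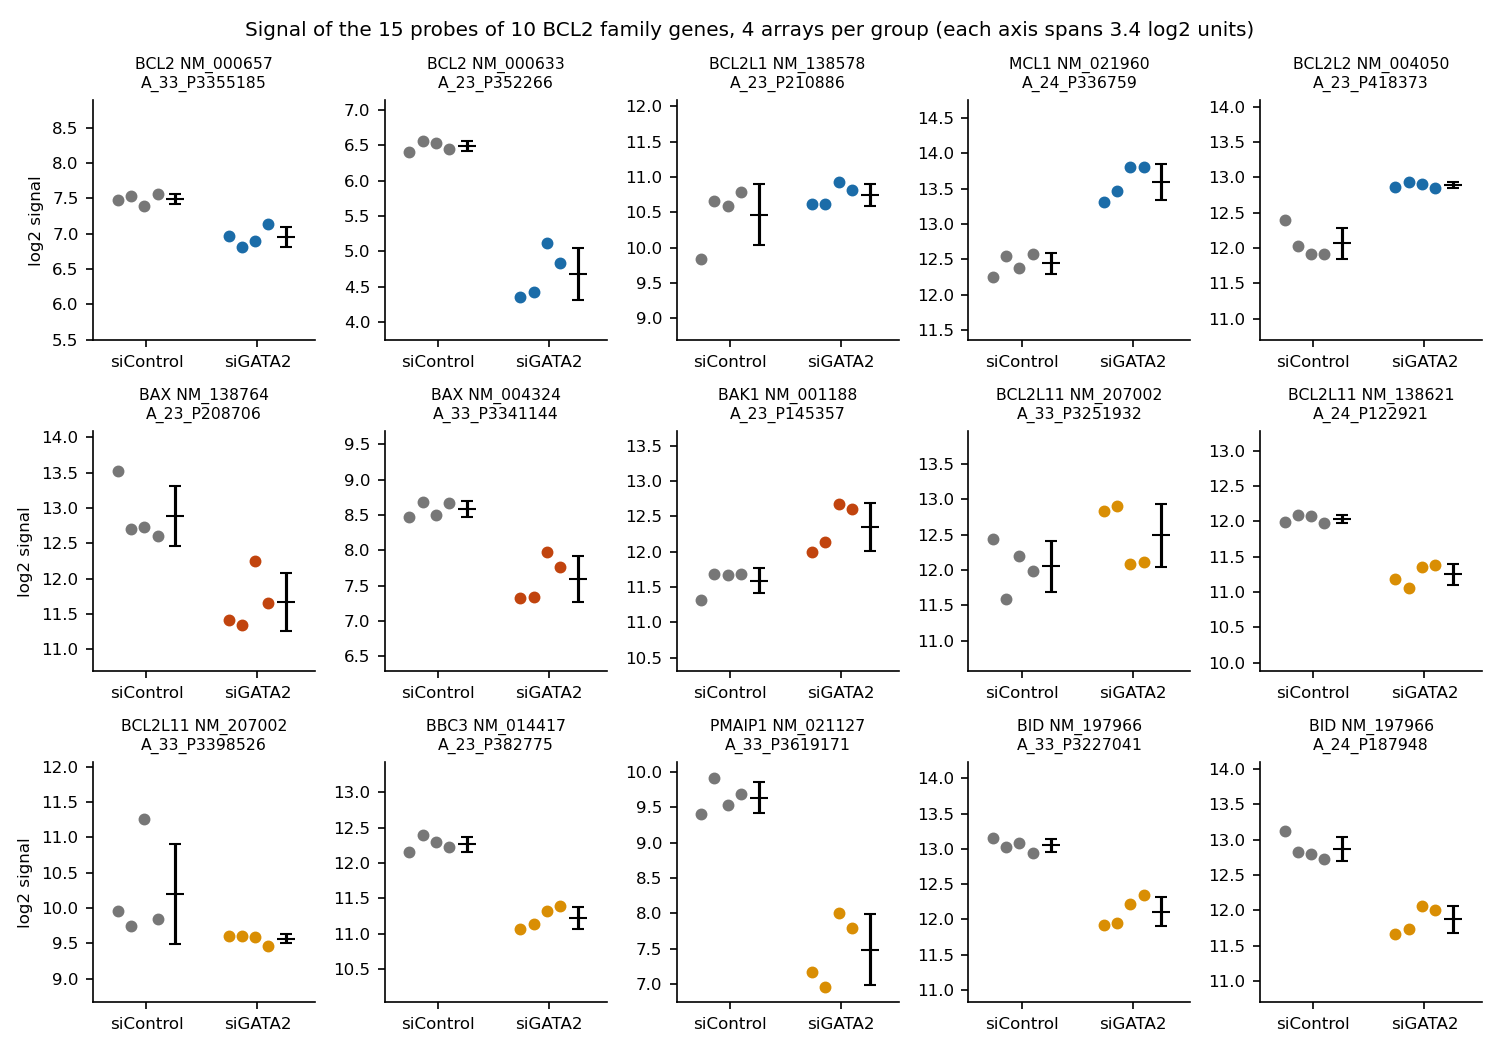
Log2 processed signal (vertical axes, each spanning 3.4 log2 units) of the 15 probes on the 4 arrays labelled siControl (grey) and the 4 labelled siGATA2 (blue for anti-apoptotic, red for pore-forming, amber for BH3-only genes); points are arrays by replicate number from left to right, and bars give the mean and SD. Both BID probes and the PMAIP1 and BBC3 probes lie lower on every array labelled siGATA2, MCL1, BCL2L2 and BAK1 lie higher on every one, and the BCL2L1 groups overlap.

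Among the anti-apoptotic genes, MCL1, a short-lived protein that binds BIM, NOXA and BAK, rose most. Its signal (probe for NM_021960) was 13.31, 13.46, 13.81 and 13.81 on the arrays labelled siGATA2 and 12.25, 12.55, 12.38 and 12.58 on those labelled siControl. The lowest array of the first group stood 0.73 above the highest of the second. The log2 fold change was 1.16 (SE 0.153, adjusted p = 0.0010 from limma), or 2.23-fold. BCL2L2, which encodes BCL-W, was 12.86, 12.94, 12.91 and 12.85 against 12.39, 12.03, 11.92 and 11.92. The arrays labelled siGATA2 were nearly alike here, and siControl array 1 was the highest of its group. The log2 fold change of BCL2L2 was 0.82 (SE 0.130, adjusted p = 0.00241 from limma), or 1.77-fold.

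BCL2 itself, the founding member of the family and an inhibitor of BAX and BIM, went the other way on both of its probes. The brighter probe, for the beta transcript NM_000657, read 6.97, 6.81, 6.89 and 7.14 on the arrays labelled siGATA2 and 7.48, 7.53, 7.39 and 7.56 on those labelled siControl, a log2 fold change of -0.53 (SE 0.107, adjusted p = 0.00773 from limma). The probe for the alpha transcript NM_000633 read 4.35, 4.42, 5.12 and 4.83 against 6.41, 6.56, 6.53 and 6.45. None of these arrays came near the other group, and the log2 fold change was -1.81 (SE 0.181, adjusted p = 0.000247 from limma over all probes). The alpha probe lies near background, which was not cleared on 1 siControl array, and with normexp background correction, whose offset shrinks the change of dim probes, it fell by 0.71 on the log2 scale. The call on the beta probe was lost with 75th percentile scaling (-0.35, adjusted p = 0.124).

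BCL2L1, whose long product BCL-XL inhibits BAX and BAK and whose short product promotes death, read 10.62, 10.62, 10.93 and 10.81 on the arrays labelled siGATA2 and 9.84, 10.66, 10.59 and 10.78 on those labelled siControl. siControl array 1 was low, and the other siControl arrays lay among those labelled siGATA2 or just below. The log2 fold change was 0.28 with a 95% interval of -0.22 to 0.77 (adjusted p = 0.381 from limma), so a rise of the size seen in MCL1 or BCL2L2 lies outside the interval. Without siControl array 1 it was 0.07. The probe is annotated to NM_138578 alone, and no separate value for the short transcript was obtained.

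The pore formers moved in opposite directions. BAX, a cytosolic protein that inserts into the mitochondrial membrane on activation, was measured by a pair of probes. The probe for NM_138764 read 11.42, 11.34, 12.25 and 11.66 on the arrays labelled siGATA2 and 13.52, 12.71, 12.73 and 12.60 on those labelled siControl, a log2 fold change of -1.22 (SE 0.271, adjusted p = 0.0122 from limma), or 2.34-fold lower. The probe for NM_004324 read 7.32, 7.34, 7.98 and 7.76 against 8.47, 8.69, 8.50 and 8.67, a log2 fold change of -0.99 (SE 0.173, adjusted p = 0.00404 over all probes). Both probes put every array labelled siGATA2 below every array labelled siControl. siControl array 1 was far above its group on the first probe and the lowest of its group on the second. For the first probe the adjusted p was 0.0588 with the slide row as a block (log2 fold change -1.13) and 0.0505 with siControl arrays 2 and 4 as the control arrays (-0.99).

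BAK1, which encodes the pore former that sits in the outer membrane at rest, bound by MCL1 and BCL-XL, rose. Its signal was 12.00, 12.13, 12.67 and 12.61 on the arrays labelled siGATA2 and 11.32, 11.68, 11.67 and 11.69 on those labelled siControl. The groups were apart by 0.31, with siControl array 1 below the others. The log2 fold change was 0.76 (SE 0.187, adjusted p = 0.0191 from limma), or 1.70-fold. This was the least stable call of the 8: the adjusted p was 0.0511 without siGATA2 array 4 (0.67), 0.0531 with the slide row as a block (0.82) and 0.0921 with siControl arrays 2 and 4 alone (0.67). With array weights BAK1 rose by 0.49.

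Of the BH3-only genes, BBC3, PMAIP1 and BID fell. PMAIP1, which encodes NOXA, the partner of MCL1, showed the largest change of the 10 genes. Its signal was 7.17, 6.96, 8.01 and 7.80 on the arrays labelled siGATA2 and 9.41, 9.92, 9.54 and 9.69 on those labelled siControl. The groups were 1.40 apart at their nearest arrays, and the log2 fold change was -2.16 (SE 0.252, adjusted p = 0.000533 from limma), or 4.46-fold lower. BBC3, which encodes PUMA, a protein that binds all the anti-apoptotic proteins, read 11.06, 11.13, 11.32 and 11.39 against 12.15, 12.39, 12.29 and 12.22. Both groups were tight, and the log2 fold change was -1.04 (SE 0.116, adjusted p = 0.000426 from limma), or 2.06-fold lower.

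BID, which links death receptors to the mitochondrion once caspase 8 has cut it, has a pair of probes for the transcript NM_197966. The brighter read 11.92, 11.95, 12.22 and 12.34 on the arrays labelled siGATA2 and 13.15, 13.03, 13.08 and 12.94 on those labelled siControl. All arrays of the first group lay at least 0.60 below those of the second, and the log2 fold change was -0.94 (SE 0.128, adjusted p = 0.00114 from limma), or 1.92-fold lower. The other probe averaged 11.87 ± 0.197 (SD, n = 4) against 12.87 ± 0.172 (SD, n = 4), a log2 fold change with a 95% interval of -1.33 to -0.67 (adjusted p = 0.00143 from limma over all probes), an interval that holds the value of the brighter probe.

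BCL2L11, which encodes BIM, an activator of BAX and BAK that exists in several splice forms, gave no single answer. Its brightest probe (A_33_P3251932, NM_207002) read 12.84, 12.91, 12.09 and 12.11 on the arrays labelled siGATA2 and 12.44, 11.59, 12.19 and 11.98 on those labelled siControl. Arrays 1 and 2 labelled siGATA2 stood above all siControl arrays, whereas arrays 3 and 4 lay among them. The log2 fold change was 0.44 with a 95% interval of -0.18 to 1.05 (adjusted p = 0.270 from limma), and it was not called, though it was called higher with array weights (0.91, adjusted p = 0.00571). The probe for NM_138621 read 11.19, 11.06, 11.36 and 11.39 against 11.99, 12.09, 12.08 and 11.98, and fell without overlap of the groups (log2 fold change -0.78, SE 0.112, adjusted p = 0.00144 over all probes). A further probe (A_33_P3398526, also annotated to NM_207002) read 9.60, 9.61, 9.59 and 9.47 against 9.96, 9.75, 11.26 and 9.84, where siControl array 3 was far above its group, and was not called (-0.64, adjusted p = 0.190). Without that array it was at -0.28, and with normexp background correction at -0.11. The mean over the probes of BCL2L11 gave -0.33 (adjusted p = 0.193). The probes annotated to NM_207002 gave estimates of opposite sign, neither of them called, and whether the probes of BCL2L11 reached different transcripts was not tested.

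**Figure D2:**
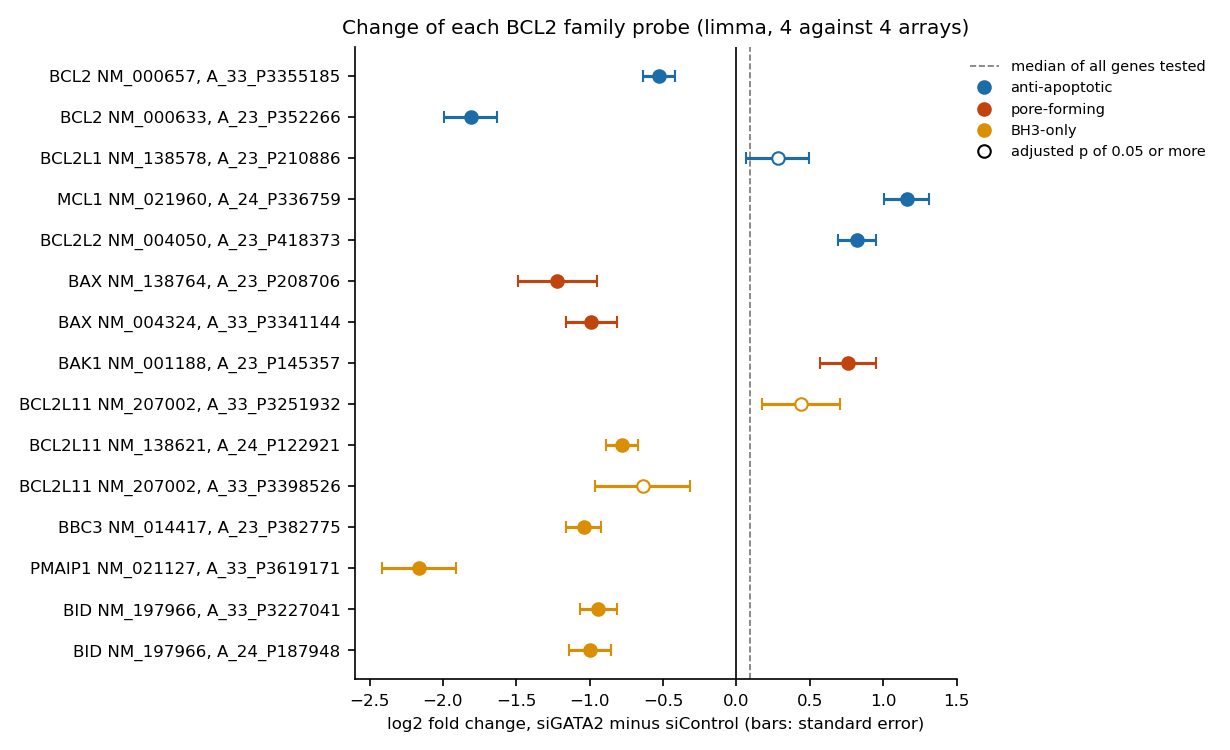
Log2 fold change (horizontal axis, arrays labelled siGATA2 minus arrays labelled siControl) of each of the 15 probes with its standard error from limma; open points had an adjusted p of 0.05 or more, colours give the role and the dashed line is the median of all genes, 0.09. Of the 4 genes with several probes, BCL2, BAX and BID have all probes below 0, while the BCL2L11 probes lie at 0.44, -0.78 and -0.64.

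The spread of these changes over the arrays is shown by the median of each role after subtracting the mean of each gene over the 8 arrays, a step that by itself gives the groups opposite signs. The median of the anti-apoptotic genes was 0.15, 0.23, 0.38 and 0.29 on the arrays labelled siGATA2 and -0.42, -0.19, -0.29 and -0.14 on those labelled siControl. The median of the pro-apoptotic genes was -0.67, -0.62, -0.27 and -0.30 against 0.49, 0.44, 0.47 and 0.34. The medians restate the changes given above array by array, they weight the genes of a role equally, and they describe transcripts and not proteins. Under E1A spike-in scaling the median log2 fold change of the anti-apoptotic genes turned to -0.08, where that of all genes was -0.43. Within the arrays labelled siGATA2, arrays 3 and 4, whose titles carry the letters E and F, were higher than arrays 1 and 2, with the letters A and B, in 11 of the 15 probes (73.3%, against 47.1% of all probes) and lower in 2 (13.3%, against 32.6%). Arrays E and F thus lay wholly apart from A and B in most of all probes, whereas the p-values given treat the 4 arrays as independent. The labels do not say what the letters mark. With the title letter as a random block, 5 genes fell and 3 rose, as without it. That block joins arrays of different groups that share a letter, and not A with B or E with F. It therefore does not test the difference between these arrays.

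**Figure D3:**
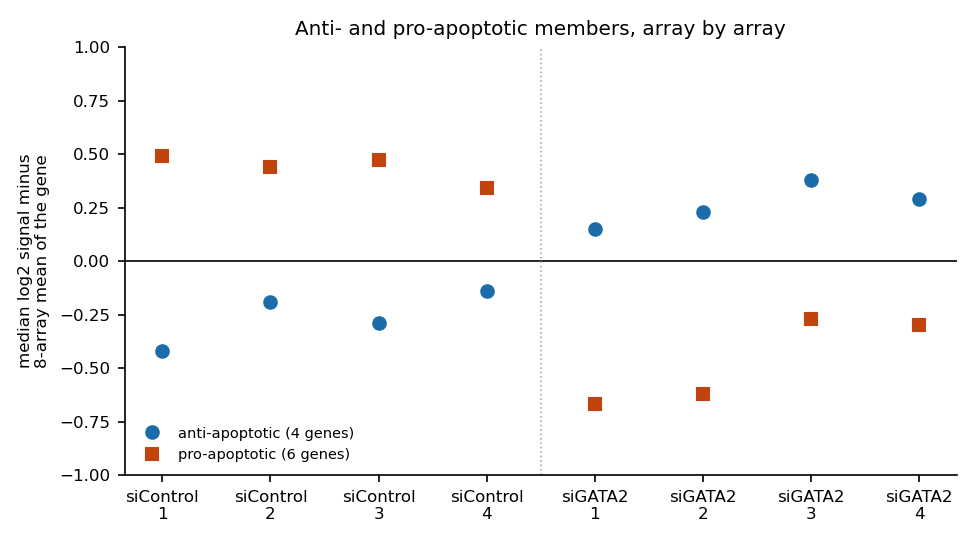
Median over the 4 anti-apoptotic genes (circles) and the 6 pro-apoptotic genes (squares) of the log2 signal minus the mean of each gene over the 8 arrays (vertical axis), for each array (horizontal axis). The circles lie below 0 and the squares above 0 on the 4 arrays labelled siControl, and on the 4 arrays labelled siGATA2 they have the opposite signs, which follows from the centring once the groups differ. What the plot adds is the spread within each group, where the squares of siGATA2 arrays 1 and 2 lie below those of arrays 3 and 4.

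Of the alternatives run, scaling to spike-ins changed the most calls. Scaled to 7 E1A spike-in probes, which does not assume that all arrays share 1 distribution of signals, all genes shifted to a median log2 fold change of -0.43, and siControl array 1 had a mean spike-in signal of 11.13 where the other arrays had 13.45 to 13.83. MCL1 was then at 0.49, or 0.92 above the median of all genes, and PMAIP1 at -2.64, so that the same genes stood at either end of the 10. Under this scaling 3 genes fell (PMAIP1, BAX at -1.86 and BBC3 at -1.66), BID at -1.59 had an adjusted p of 0.0567, and MCL1, BCL2L2 at 0.17 and BAK1 at 0.13 were not called. Of all genes 6.59% fell and 0.489% rose under it. With siControl array 1 left out as well, MCL1, BCL2L2, BAX, BBC3, PMAIP1 and BID were called in the direction given above, and BCL2 (-0.48, adjusted p = 0.142) and BAK1 (0.42, adjusted p = 0.249) were not. Of all genes 15.5% then fell and 6.47% rose. The falls of PMAIP1 and BBC3 were called under all 23 alternatives. None of the 8 called genes changed sign under any of them.

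**Figure D4:**
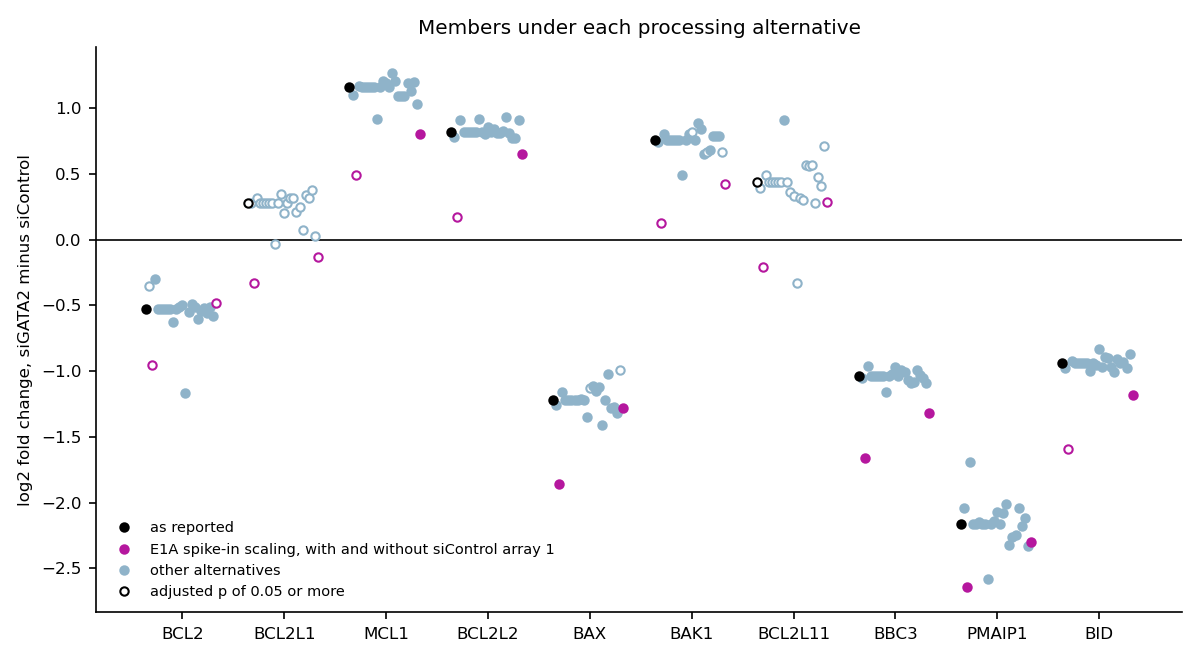
Log2 fold change (vertical axis) of the 10 genes as reported (black), under E1A spike-in scaling with and without siControl array 1 (magenta) and under the other alternatives (light blue); open points had an adjusted p of 0.05 or more. With spike-in scaling of all arrays every gene but BCL2 and BCL2L11 is at its lowest, and BCL2L1 and BCL2L11 cross 0.

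The promoters of the family genes were searched for the letters of known binding motifs, on both strands, in the 250 bases before each annotated transcription start in RefSeq (GRCh38.p14). Windows were held for 8 of the 10 genes and not for MCL1 and BCL2L2. The GATA words, which are AGATAA or AGATAG and also TGATAA or TGATAG, were in none of the 8, against 22.3% of all 35116 promoters, and the E2F words TTTCGCGC and TTTGGCGC were in none, against 0.968%. CACGTG, the E-box core that MYC and related factors bind, was in the windows of BAX, BBC3 and BID and in 6.34% of all promoters. A gene with several starts, such as BID, had several chances of a match. A match of letters is not a measured site, and a missing match says only that these letters are not in this window. TGANTCA, the AP-1 word, was in the window of BBC3 (6.57% of all promoters), and GGGCGG, the GC box, in those of BAK1, BAX, BCL2L11, BID and PMAIP1 (42.6%). A window of each of BAX, BBC3 and BID is shown because it holds CACGTG, with the matches in capitals. BCL2 and PMAIP1, which also fell on the arrays labelled siGATA2, had no CACGTG in their windows. The BAX window holds 4 matches, between 9 and 138 bases before the start, and the BBC3 window 1, at 227 to 232 bases. Of the 5 BID windows, 2 that overlap hold the same match, at 101 to 106 bases before the start of the window shown and at 42 to 47 bases before another start.
BAX, chr19:48954625-48954874, plus strand: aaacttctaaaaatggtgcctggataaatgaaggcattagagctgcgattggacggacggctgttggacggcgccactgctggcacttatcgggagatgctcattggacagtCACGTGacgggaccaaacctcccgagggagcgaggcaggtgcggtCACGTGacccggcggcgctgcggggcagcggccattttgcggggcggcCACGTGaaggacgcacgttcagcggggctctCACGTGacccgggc
BBC3, chr19:47232668-47232917, minus strand: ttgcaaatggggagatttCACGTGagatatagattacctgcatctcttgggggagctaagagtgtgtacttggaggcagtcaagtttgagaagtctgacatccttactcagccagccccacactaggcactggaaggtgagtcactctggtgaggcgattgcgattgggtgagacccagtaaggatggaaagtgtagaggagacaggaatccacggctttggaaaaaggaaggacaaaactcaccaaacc
BID, chr22:17773984-17774233, minus strand: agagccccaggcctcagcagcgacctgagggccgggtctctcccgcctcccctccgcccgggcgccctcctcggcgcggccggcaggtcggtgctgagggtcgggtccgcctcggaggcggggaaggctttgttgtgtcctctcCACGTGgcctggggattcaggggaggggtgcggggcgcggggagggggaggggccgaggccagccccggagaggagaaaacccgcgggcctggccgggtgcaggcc

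Of 11 further BCL2 family genes 10 were tested. Of these 2 fell, 4 rose and 4 were not called, where 14.2% of all genes fell and 12.3% rose. The median log2 fold change of the 10 was 0.33, beside 0.09 over all genes. The 4 that rose belong to different roles. BCL2L10, an anti-apoptotic relative, read 7.42, 7.36, 6.44 and 6.65 on the arrays labelled siGATA2 and 6.01, 5.60, 5.17 and 5.40 on those labelled siControl (log2 fold change 1.42, adjusted p = 0.00704 from limma), and its signal was near background, above it on 7 of 8 arrays, and it rose by 0.74 with normexp background correction. BCL2A1, another anti-apoptotic member, rose by 0.51 (adjusted p = 0.0122), on the only one of its probes that cleared background. BAD, a BH3-only protein that binds BCL2 and BCL-XL, rose by 0.71 (adjusted p = 0.00442), and BNIP3L, a mitophagy receptor, by 0.84 (adjusted p = 0.0170), on both of its probes. The BH3-only genes HRK (-0.77, adjusted p = 0.0270, and -0.39 with normexp background correction) and BMF (-0.39, adjusted p = 0.0166) fell. BOK (0.12), BIK (0.15) and BNIP3 (0.13) were not called, nor was BCL2L13 (0.61, adjusted p = 0.0638), another of whose probes fell (-0.34, adjusted p = 0.0290 over all probes), and no array had BCL2L14 well above background. Under E1A spike-in scaling none of the 4 that rose and neither HRK nor BMF was called. The calls on HRK and BMF were lost with 75th percentile scaling (adjusted p = 0.0566 and 0.0771) and with the slide row as a block (0.110 and 0.0596). They were lost without siControl array 2 (0.0767 and 0.0562) and without siControl array 4 (0.0764 and 0.0562), and HRK also without siGATA2 array 1 (0.0657) or array 2 (0.0736). BNIP3L was lost with 75th percentile scaling (0.0779) and without siControl array 4 (0.0519).

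Beyond the family, 55 of 57 listed genes of the pathway, the further family genes included, were tested. Of these 14 fell, 9 rose and 32 were not called, with a median log2 fold change of 0.02. Over all genes 14.2% fell and 12.3% rose, with a median of 0.09. The counts of each list below are to be read beside the same shares. Downstream of the pores, 3 of 9 genes of the caspases and the apoptosome fell and none rose. CASP2, an initiator caspase, read 10.31, 10.13, 10.09 and 10.02 on the arrays labelled siGATA2 and 11.85, 12.11, 12.12 and 12.07 on those labelled siControl (log2 fold change -1.90, adjusted p = 2.7e-05 from limma), and the mean over its probes gave -0.92. APAF1, the scaffold that cytochrome c assembles, fell by 0.77 (adjusted p = 0.0112) and by 0.28 with normexp background correction. Its probe cleared background on only 2 of the siControl arrays, and it was not called with 75th percentile scaling (-0.44, adjusted p = 0.117). CYCS, which encodes cytochrome c, fell by 0.67 (adjusted p = 0.0140). The initiator CASP9 (-0.30, adjusted p = 0.109) was not called, nor were CASP6 (0.02), CASP8 (0.27) and CASP10 (0.08). Among 7 genes for VDAC channels and proteins released from mitochondria, ENDOG, a nuclease, fell by 1.42 (adjusted p = 0.000514) and the other 6 were not called.

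Of 7 inhibitor of apoptosis genes, BIRC5, which encodes survivin and is also a mitotic gene, read 12.88, 12.62, 12.33 and 12.54 on the arrays labelled siGATA2 and 14.89, 14.98, 15.09 and 15.02 on those labelled siControl (log2 fold change -2.40, adjusted p = 2.3e-05 from limma). BIRC6, a large ubiquitin ligase that restrains caspases, rose by 0.63 (adjusted p = 0.00667), and the other 5, XIAP (0.34, adjusted p = 0.109), BIRC2 (0.24), BIRC3 (0.78), BIRC7 (0.33) and NAIP (1.27, adjusted p = 0.144), were not called. Of 10 death receptor genes 9 were tested, of which 3 fell and 1 rose. FAS, a death receptor, read 7.76, 7.70, 7.62 and 7.53 against 10.09, 11.07, 10.73 and 10.85 (log2 fold change -3.03, adjusted p = 4.4e-05 from limma), or 8.18-fold lower. TNFSF10, the ligand TRAIL, fell by 1.71 (adjusted p = 0.0012), or by 0.65 with normexp background correction, and TNFRSF10A, a receptor for TRAIL, fell by 0.84 (adjusted p = 0.00218). TNFRSF1A, a receptor for TNF, rose by 0.79 (adjusted p = 0.000631), and TNFRSF10B, FADD, CFLAR, TRADD and RIPK1 were not called, at -0.31 to 0.81.

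Among 4 genes that govern the turnover of MCL1 and BIM, the deubiquitinase USP9X, which spares MCL1, rose by 0.67 (adjusted p = 0.00401 from limma), and FBXW7, which marks MCL1 and MYC for destruction, fell by 0.66 (adjusted p = 0.0129), or by 0.57 with the slide row as a block (adjusted p = 0.0663). The ligase HUWE1 (0.18, adjusted p = 0.209) and BTRC (0.15, adjusted p = 0.532) were not called. Of 9 transcription factors known to act on BH3-only genes, 3 fell and 2 rose. MYC, which sensitises cells to apoptosis, fell by 2.75 (adjusted p = 1.3e-05) and E2F1, an activator of several pro-apoptotic genes, by 2.23 (adjusted p = 2.7e-05), and TP73, a transcription factor of BBC3, by 0.45 (adjusted p = 0.0428). JUN, a stress-responsive factor, read 12.57, 12.71, 13.65 and 13.68 on the arrays labelled siGATA2 and 10.20, 10.44, 10.42 and 10.27 on those labelled siControl (log2 fold change 2.82, adjusted p = 0.00023), and FOXO1, an activator of BCL2L11, rose by 1.26 (adjusted p = 0.00101). FOXO3 (-0.02), DDIT3 (-0.04) and ATF4 (-0.19) were not called. Under E1A spike-in scaling BIRC6, TNFRSF1A, USP9X, FBXW7, FOXO1 and APAF1 were not called, while CASP2, ENDOG, BIRC5, FAS, TNFSF10, MYC, E2F1 and JUN were. No alternatives are given for CYCS, TNFRSF10A and TP73.

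**Figure D5:**
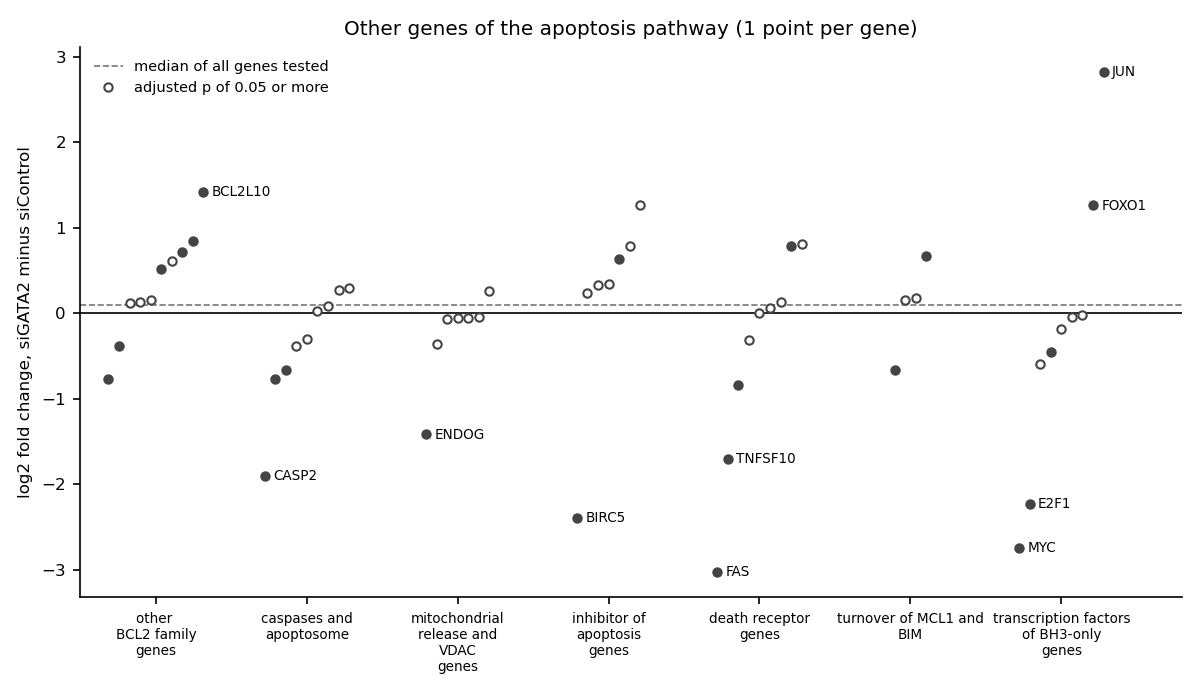
Log2 fold change (vertical axis, arrays labelled siGATA2 minus arrays labelled siControl) of the tested genes of 7 pathway lists (horizontal axis), 1 point per gene; open points had an adjusted p of 0.05 or more, the dashed line is the median of all genes, 0.09, and called genes that changed at least 2-fold are named. FAS at -3.03 and JUN at 2.82 lie farthest from 0.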

How the data were processed

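LNCaP cells labelled siGATA2 or siControl were measured on 4 arrays per group, grouped by the sample labels. Per the file headers, the authors deposited spot intensity values from Agilent Feature Extraction 11.0.1.1 (version from the submitters' processing notes), whose processed signal is background-corrected, and a table of log2 values, whose columns correlated at 0.9825 to 0.9993 with the log2 processed signal of their own array. The methods name quantile normalization in GeneSpring, and the header names another array design than the methods. For the values reported here, outlier spots were dropped, the log2 signals of a probe's spots averaged and all 8 arrays quantile-normalized with limma 3.58.1 in R 4.3.3. Of 27902 probes with a RefSeq accession, 26364 were named through a RefSeq table of GRCh38.p14. Unannotated probes (1914) and probes whose mean was below 3 were left out, and the brightest probe of a gene was used for it. The test was lmFit and eBayes with Benjamini-Hochberg adjustment over 28850 genes or 35514 probes, with a threshold of 0.05 and, counted beside it, a fold of 2. It was tested on simulated data drawn independently for each array, which do not cover arrays that vary together. The number of arrays limits the precision, as arrays have no read depth.

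The members and lists were chosen with earlier results of these data known. The genes named are the 10 members with all their probes, the other family genes, up to 2 called genes with the largest fall and rise per further list, and GATA2; the other genes of these lists that are named were added after their values were seen, and 3 listed genes are not reported here. Same-numbered arrays did not all deviate together (correlations of deviations 0.54, -0.31, 0.17 and 0.22), so the numbers were not used as pairs. The alternatives were other scalings, background corrections, filters, tests, blocks, probe rules and subsets of arrays. With 1 slide there was no slide block to fit. The tumour, xenograft and protein measurements of the study were not analysed here.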

Additional observations from a re-analysis of the deposited data

Results flagged for a closer look

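In 8 of 92 groups of 4 values examined, 1 array stood apart from its group, by a gap to its nearest neighbour, given here as a share of the range of the group, that passes Dixon's critical value, where chance gives about 1 in 20. siControl array 1 did so for BAX (13.52 against 12.60 to 12.73, gap 0.861), BAK1 (11.32 against 11.67 to 11.69, gap 0.947), BMF (9.34 against 9.41 to 9.42, gap 0.873) and ENDOG (13.58 against 14.11 to 14.21, gap 0.834). siControl array 3 did so for the BCL2L11 probe A_33_P3398526 (11.26 against 9.75 to 9.96, gap 0.86) and for the BCL2A1 probe that was not above background (2.57 against 1.78 to 1.82, gap 0.944). BNIP3 was low on siControl array 4 (15.65 against 15.85 to 15.89, gap 0.833), and BCL2A1 was high on siGATA2 array 4 (13.38 against 13.24 to 13.26, gap 0.884). Without siControl array 1 the calls on BAX and BAK1 were kept.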

How the results depend on the processing

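Under E1A spike-in scaling the number of family genes that fell went from 5 to 3 and the number that rose from 3 to 0. The share of all genes that fell went from 14.2% to 6.59%, and the share that rose from 12.3% to 0.489%. All genes then had a median log2 fold change of -0.43, or of 0.0 with siControl array 1 left out. The median log2 fold change of the anti-apoptotic genes turned from 0.55 to -0.08 (0.26 with siControl array 1 left out, an alternative chosen after seeing the data), and that of the pro-apoptotic genes went from -0.99 to -1.62 (-1.23). The other 21 alternatives left these medians within the spread of their arrays and the counts within 1.5 times. Among genes not called as reported, spike-in scaling turned the sign of BCL2L1 (-0.33, and -0.13 without siControl array 1), BCL2L11 (-0.21), BOK (-0.53 and -0.25), BIK (-0.48 and -0.10), BCL2L13 (-0.02) and BNIP3 (-0.65 and -0.23), as well as that of BCL2A1 (-0.16), which was called as reported. Array weights turned BCL2L1 (-0.03), the mean over probes BCL2L11 (-0.33), siControl arrays 2 and 4 alone BOK (-0.01) and 75th percentile scaling BNIP3 (-0.05). With the replicate block 5 family genes fell and 3 rose, as without it, where 12.9% of all genes fell and 11.7% rose. Among the named genes BMF lost its call under this block (adjusted p = 0.0711) and BCL2L13 gained one (0.0485). Beyond the siRNA groups, 4 arrays per group, their unequal spread over the slide rows and the lower signal over background of siControl arrays 1 and 3 limit all values. The cause of the changes with scaling was not tested.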
